A study of Mus musculus with 6 samples.

Results

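The Reg family comprises small secreted proteins built around a C-type lectin fold, and the 7 mouse genes Reg1, Reg2, Reg3a, Reg3b, Reg3d, Reg3g and Reg4 were taken by name from the expression table, which holds 23420 genes. All 7 were found. The RNA came from 6 libraries that form 1 group, each from ileal tuft cells of a C57BL/6J mouse carrying Gfi1b-eGFP on 1 allele, with no treatment named and neither age nor sex in the labels. In these mice green fluorescent protein is driven from the locus of Gfi1b, a transcription factor gene active in tuft cells but also in blood cells, and the sort kept viable GFP-positive, EpCam-positive and CD45-negative cells. There is no second group and no unsorted epithelium among these libraries, so the comparisons are between genes within a library and between libraries of the same kind.

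Reg proteins act mainly in the gut lumen and the pancreas. REG3G binds peptidoglycan and kills Gram-positive bacteria, and together with REG3B, which also acts on Gram-negative bacteria, it helps to keep microbes away from the intestinal surface. Both genes are known to be induced by microbes through MyD88 and through the cytokine IL-22, which signals by STAT3, and both are made by enterocytes, Paneth cells and goblet cells. Reg1, Reg2 and Reg3d are known mainly from the pancreas, and Reg4 from enteroendocrine and deep secretory cells of the gut.

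Values are TPM, the number of transcripts of a gene per 1000000 transcripts, which is corrected for transcript length and so can be compared between genes. The number of reads behind a TPM value is not kept, so sequencing depth is unknown, and a value of 0 comes without a limit of detection. Between 13044 and 13308 genes were listed above 0 per library, Spearman correlations between libraries across genes ran from 0.915 to 0.937 over 15 pairs, and no pair was identical. The ribosomal RNA precursor Rn45s took 23.1% to 32.6% of TPM. Gm20594 took 1.56% to 2.13% in replicates 1 to 3 and 5.18% to 5.64% in replicates 4 to 6, and because of this gap relations across libraries are also given within these sets. Whether the sets mark a batch is not in the labels.

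The sorted cells carried tuft cell markers, and markers of other epithelial cells as well. The 13 tuft cell genes found of 14 listed together had 10657 to 20999 TPM per library, among them Cd24a and Trpm5, and none was at 0 in any library. Cd24a alone made up 4291 TPM of the lowest of these sums and 9996 TPM of the highest. The ileal enterocyte gene Fabp6, a bile acid binding protein, had 1290 to 2673 TPM. Summed levels per library were 4089 to 26976 TPM for 7 Paneth cell genes, 1053 to 5118 TPM for 7 goblet cell genes and 2710 to 6052 TPM for 8 enterocyte genes. They were 336 to 813 TPM for 6 stem cell genes and 170.1 to 436.4 TPM for 7 lymphocyte genes. Ptprc alone made up 171 of the 201 TPM of the lymphocyte genes in replicate 1 and 74.2 of the 436.4 TPM in replicate 6. Of 10 pancreatic acinar genes, 8 were listed at 0 in every library and the other two summed to at most 2.72 TPM. As these are bulk samples, fewer cells of a type and less RNA per cell cannot be told apart, and the cell that made each Reg transcript was not tested.

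In GENCODE M21 on GRCm38, 6 of the 7 genes lie side by side on chromosome 6 between 78370657 and 78468872, a stretch of 98.2 kb in which no other gene is annotated. Reg3b (ENSMUSG00000071356.7, 78370657 to 78373466, plus strand) stands at one edge and Reg3g (ENSMUSG00000030017.2, 78466269 to 78468872, minus strand) at the other. Between them lie Reg3d (78375874 to 78378865, minus strand), Reg3a (78380709 to 78383827, plus strand), Reg2 (78395623 to 78408106, plus strand) and Reg1 (78422711 to 78428667, plus strand). Reg4 is on chromosome 3, from 98222156 to 98236748 on the plus strand. The reference transcript of each gene has 6 exons.

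The stretch of DNA just before the start of transcription is shown for Reg3b and Reg3g, whose levels moved together in the results that follow. It is also shown for Reg3a, which lies between them and whose joint change with them across libraries did not pass a test. The sequences come from RefSeq promoters on GRCm38.p6, in which all 7 genes were matched, and give the 150 bases before the RefSeq start on the strand of the gene. The start of Reg3b differs between annotations, and the stretch printed for it lies inside the GENCODE span given above. Capitals mark the letters TATAAA and the longest run of letters that Reg3b and Reg3g share within 250 bases before their starts.
Reg3b, chr6:78370735-78370884, plus strand: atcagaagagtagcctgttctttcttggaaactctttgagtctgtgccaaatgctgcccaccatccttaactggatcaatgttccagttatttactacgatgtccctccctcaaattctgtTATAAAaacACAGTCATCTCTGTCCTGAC
Reg3g, chr6:78468875-78469024, minus strand: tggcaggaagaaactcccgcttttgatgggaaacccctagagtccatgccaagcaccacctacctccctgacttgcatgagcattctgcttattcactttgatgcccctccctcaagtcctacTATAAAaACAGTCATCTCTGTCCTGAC
Reg3a, chr6:78380559-78380708, plus strand: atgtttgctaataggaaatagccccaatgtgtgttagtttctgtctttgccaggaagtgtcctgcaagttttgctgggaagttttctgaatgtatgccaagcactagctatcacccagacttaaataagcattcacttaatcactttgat

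The shared run of Reg3b and Reg3g is 20 bases long within the letters searched and reaches the RefSeq start in both genes. The search stopped at the start, so the full run may be longer. The longest shared run of the other 20 pairs of Reg promoters was 6 to 12 bases. Such counts depend on where each start is annotated. The longest run that Reg3a shares with Reg3g, ATGCCAAGCAC, begins at -57 in Reg3a and at -105 in Reg3g. Letters after the start were not compared, so whether Reg3a carries the 20-base run or TATAAA there was not tested. Over the 250 bases, Reg3b and Reg3g were identical at 70.0% of aligned positions, within the range of 53.4% to 71.9% of the other pairs. The letters TATAAA, on the strand of the gene and within 40 bases before the start, were found in 4 of 7 Reg promoters, namely Reg1, Reg2, Reg3b and Reg3g, and in 2.31% of all 32851 promoters of the table. The letters TTCNNNGAA, the core of sites bound by STAT proteins, read the same on both strands. They were found over 250 bases in 2 of 7, as TTCTTGGAA from 129 bases before the start of Reg3b and as TTCCCAGAA from 238 bases before that of Reg3d, and in 7.02% of all promoters. The letters CAGCTG, which also read the same on both strands, were in 0 of 7 and in 13.0% of all promoters. These matches describe letters only.

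How far reads of one Reg gene could be assigned to another was read from the reference transcripts. Reg3b and Reg3g transcripts were identical at 73.4% of aligned bases. Of 759 stretches of 25 bases in Reg3b, 11 occurred unchanged in Reg3g and 19 did so with at most 1 mismatch. No other pair of Reg transcripts shared an unchanged stretch of 25 bases. With at most 1 mismatch, Reg3a shared 14 stretches with Reg3b and 6 with Reg3g, and Reg1 shared 9 with Reg2. How many reads of the far more abundant Reg3b and Reg3g were assigned to Reg3a was not tested. The authors' own transcript models were not used here.

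The family was dominated by Reg3g and Reg3b, which together took 98.5% to 99.9% of all Reg TPM in each library. From replicate 1 to replicate 6, the levels of Reg3g were 4468, 3325, 22079, 6308, 10023 and 14146 TPM, and they averaged 10058 ± 7097 TPM (SD, n = 6). It was the 2nd to the 15th most abundant gene of its library. Those of Reg3b were 1972, 1501, 17046, 4698, 6178 and 10028 TPM, averaging 6904 ± 5857 TPM (SD, n = 6), and the gene ranked 3rd to 50th. Both genes were highest in replicate 3 and lowest in replicate 2. Together they made up 0.483% of all TPM in replicate 2 and 3.91% in replicate 3.

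The remaining members were lower by a wide margin. Reg3a, the third Reg3 gene with a clear signal, was at 21.7, 54.1, 57.7, 29.8, 16.1 and 13.5 TPM, with a mean of 32.2 ± 19.3 TPM (SD, n = 6). It was highest in replicates 2 and 3, so that it was high both in the library where Reg3b and Reg3g were lowest and in the library where they were highest. Reg4 was at 26.0, 15.5, 1.80, 59.9, 69.2 and 8.49 TPM, with a mean of 30.2 ± 28.0 TPM (SD, n = 6), and was lowest in replicate 3. Reg1 was at 5.09, 2.76, 8.11, 6.39, 0 and 5.48 TPM, with a mean of 4.64 ± 2.87 TPM (SD, n = 6), and was listed at 0 in replicate 5 alone.

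Reg2 and Reg3d were at or near 0. Replicates 4 and 5 listed Reg2 at 0.31 and 0.34 TPM, and the other libraries listed it at 0. Reg3d was listed at 0.32 TPM in replicate 6 and at 0 in the other libraries. By mean TPM, Reg1, Reg2 and Reg3d, which are known mainly from the pancreas, were the lowest of the family, although in replicate 3 Reg1 was above Reg4. The 5 members that averaged 1 TPM or more, of which Reg1 was the lowest at 4.64 TPM, entered the relations across libraries, and Reg2 at 0.108 TPM and Reg3d at 0.0533 TPM did not.

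**Figure D1:**
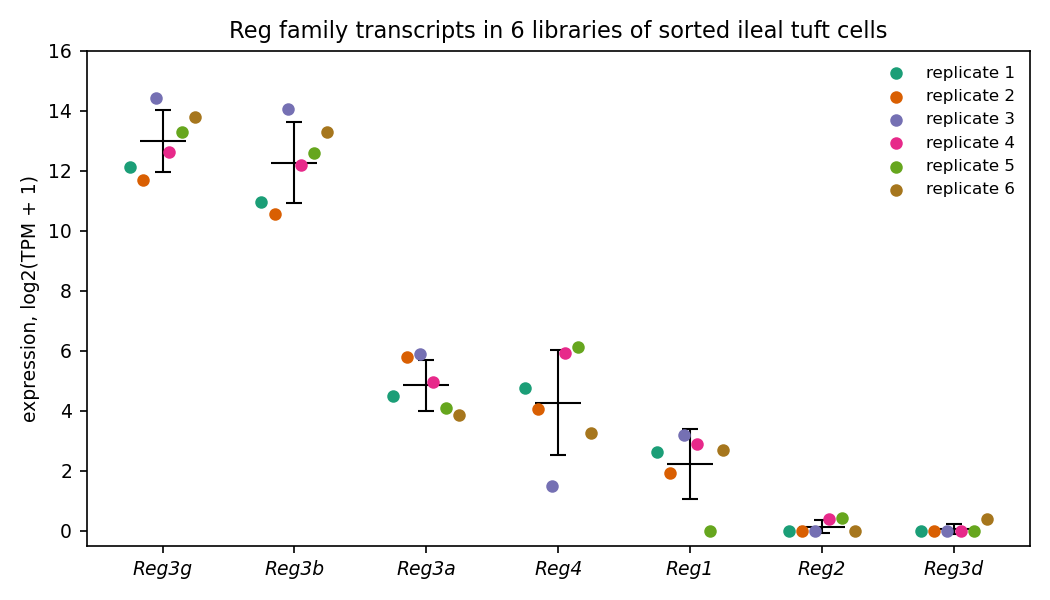
Expression of the 7 Reg genes on the log2(TPM + 1) scale (vertical axis), ordered by mean TPM, with 1 coloured point per library and the mean ± SD of 6 libraries in black. Reg3g and Reg3b stood at means of 12.99 and 12.27, Reg3a and Reg4 at 4.84 and 4.27, Reg1 at 2.21, and Reg2 and Reg3d close to 0.

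Neighbours in the order of mean level were tested on their differences in log2(TPM + 1), taken library by library, with an exact permutation test that flips signs (two-sided) and was adjusted over 6 pairs by the Benjamini-Hochberg method. With 6 libraries the smallest p this test can give is 0.03125. Reg3g exceeded Reg3b in 6 of 6 libraries by 0.72 ± 0.36 (SD, n = 6), which gave that smallest p in the exact test and an adjusted p of 0.0938. Reg3b exceeded Reg3a in 6 of 6 libraries by 7.43 ± 1.66 (SD, n = 6), with the same exact p of 0.03125 and adjusted p of 0.0938. Neither passed 0.05 after adjustment, although no library went the other way. A pair at the smallest p cannot pass after adjustment over 6 pairs unless most of the other pairs reach that p too. The adjusted call therefore does not weigh the size of these differences. The order of the pairs was itself taken from the mean levels in these libraries.

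Reg3a and Reg4 were not distinguishable, since each was the higher in 3 of 6 libraries and the mean difference of 0.58 ± 2.27 was smaller than its spread (exact permutation p = 0.62, adjusted p = 0.750). Without replicate 3 the order of this pair turned, with Reg3a lower by 0.18. Reg4 exceeded Reg1 in 5 of 6 libraries by 2.05 ± 2.61 (exact p = 0.0938, adjusted p = 0.141), and Reg1 exceeded Reg2 in 5 of 6 by 2.08 ± 1.29 (exact p = 0.0625, adjusted p = 0.125). The difference between Reg2 and Reg3d was 0.07 ± 0.30 (exact p = 0.750, adjusted p = 0.750), and the sign of this difference turned without replicate 5. An exact Mann-Whitney test, which ignores the library, separated Reg3b from Reg3a (exact p = 0.00216, adjusted p = 0.0130) but not Reg3g from Reg3b (exact p = 0.485, adjusted p = 0.727), whose ranges overlap between libraries.

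Other lectin genes set a scale for the Reg3 levels. The galectin genes Lgals4 and Lgals2 had 2531 ± 285 and 2472 ± 626 TPM, the goblet cell lectin Zg16 had 848.3 ± 511 TPM and the intelectin Itln1, a Paneth cell lectin, had 541.6 ± 324 TPM (SD, n = 6 each). Lgals3 had 569.1 ± 131 TPM and Lgals9 had 371.0 ± 70.3 TPM (SD, n = 6 each). Lgals3 had an r of -0.955 with Reg3b and -0.937 with Reg3g, and the other 5 genes of this list had an r between -0.8 and 0.8 with both. In each library Reg3g was above the 6 lectin genes of this list, and its range across libraries, 6.64-fold from lowest to highest, was wider than that of Lgals4, which ran from 2219 to 3007 TPM. Reg3b was below both Lgals4 and Lgals2 in replicates 1 and 2. It was at 1972 TPM against 2681 and 2663 TPM in replicate 1, and at 1501 TPM against 2560 and 2836 TPM in replicate 2. In the other libraries Reg3b was above all 6 genes.

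Reg genes varied between libraries more than most genes. The SD of log2(TPM + 1) was 1.75 for Reg4, 1.35 for Reg3b, 1.16 for Reg1, 1.03 for Reg3g and 0.85 for Reg3a. It was 1 or more in 4 of these 5 members and in 15.7% of the 12032 genes that averaged 1 TPM or more. The median was 1.16 over the 5 members and 0.55 over all these genes. Highest over lowest TPM was 38.5-fold for Reg4, 11.4-fold for Reg3b and 4.28-fold for Reg3a. The spread of Reg1 rested on replicate 5, without which the SD fell to 0.47, and without replicate 3 that of Reg3g was 0.85.

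Reg3b and Reg3g rose and fell together across the libraries. Their order was the same in all 6 libraries, with replicate 2 lowest, then replicates 1, 4, 5 and 6, and replicate 3 highest. Pearson's r of log2(TPM + 1) was 0.988 (exact permutation p = 0.00139, adjusted p = 0.0139 over 10 member pairs, n = 6) and Spearman's rho was 1.000 (exact permutation p = 0.00278, adjusted p = 0.0278). Without replicates 2 and 3, the libraries farthest from the median of Reg3b, r was 0.964. Within replicates 1 to 3 it was 0.999 and within replicates 4 to 6 it was 0.971 (n = 3 in each set). After centring within these sets it was 0.991 (exact permutation p = 0.0278 over 36 pairings, adjusted p = 0.278).

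The strength of this relation is described by its place among all genes. Of the 12031 other genes that averaged 1 TPM or more, 2.94% had an r of 0.8 or more with Reg3b and 3.07% had one with Reg3g. No gene had a higher r with Reg3b than Reg3g did, and 1 gene, Aurkb, had a higher r with Reg3g than Reg3b did. Of the 4 other members tested, only Reg3g reached 0.8 with Reg3b, and only Reg3b did so with Reg3g.

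The ratio of the genes within a library, which no scaling of the library changes, stayed narrow as well. Reg3g over Reg3b was 2.27, 2.22, 1.30, 1.34, 1.62 and 1.41 in replicates 1 to 6, and thus highest in the libraries where both genes were lowest. The log2 ratio of Reg3b to Reg3g had an SD of 0.36, against a median SD of 1.24 for the log2 ratio to Reg3g over the 10720 genes above 0 in every library, and 5 genes, Reg3b among them, had an SD no larger than this.

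**Figure D2:**
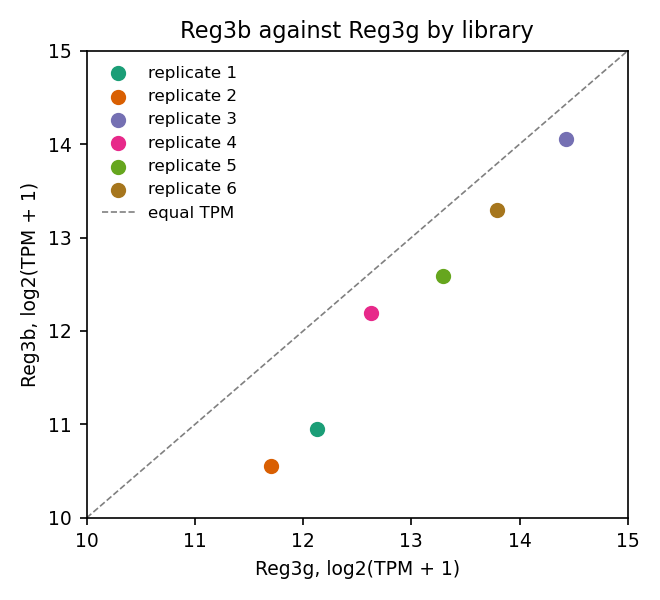
Reg3b (vertical axis) against Reg3g (horizontal axis) on the log2(TPM + 1) scale, 1 point per library, with the dashed line at equal TPM. All 6 points lie below the line and rise together (r = 0.988), from replicate 2, where Reg3g was 2.22 times Reg3b, to replicate 3, where it was 1.30 times Reg3b.

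No other pair of members passed the test. The 9 other pairs had r between -0.585 and 0.371, with a smallest exact permutation p of 0.240 and adjusted p of 0.678 to 0.829 (n = 6). Reg3a, although it lies between Reg3b and Reg3g on the chromosome, had an r of -0.102 with Reg3b and -0.111 with Reg3g, and both turned positive when replicate 2 was left out, at 0.363 and 0.334. Reg4 had an r of -0.492 with Reg3b and -0.553 with Reg3g, and without replicate 3 these were 0.028 and -0.050. Within the sets of libraries they were more negative, at -0.952 and -0.938 in replicates 1 to 3 and -0.910 and -0.783 in replicates 4 to 6 (n = 3 in each set). With 3 libraries an r of this size is easily reached, and these values were not tested. After centring within the sets they were -0.840 and -0.834 (exact permutation p = 0.111 for both). A p that misses the threshold with 6 libraries does not show that the other members vary independently.

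Each of the 5 members was then set against the median log2(TPM + 1) of 5 marker lists, which gave 25 relations. Before adjustment 5 passed 0.05, and after adjustment 0 did, with a smallest adjusted p of 0.191. All 5 concerned Reg3b, Reg3g or Reg4. By Spearman's rho, 4 passed 0.05 before adjustment and none passed after it.

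Reg3b and Reg3g were high in libraries with high goblet cell markers and low tuft cell markers. The goblet list median was 7.20, 6.60, 8.60, 7.98, 8.29 and 9.67 in replicates 1 to 6. Its r was 0.873 with Reg3b (exact permutation p = 0.0292, adjusted p = 0.191; rho = 0.943, exact p = 0.0167, adjusted p = 0.208; n = 6) and 0.858 with Reg3g (exact permutation p = 0.0306, adjusted p = 0.191; rho = 0.943, exact p = 0.0167, adjusted p = 0.208; n = 6). Without replicates 2 and 3 these r were 0.944 and 0.953, and centred within the sets of libraries they were 0.887 and 0.911. Without replicate 2 they were 0.784 and 0.764 (exact permutation p = 0.125 for both, n = 5), and without replicate 3 they were 0.968 and 0.973. With list means in place of medians they were 0.819 and 0.791.

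The tuft list median was 9.18, 9.10, 8.16, 8.74, 8.21 and 8.05 in replicates 1 to 6. Its r was -0.925 with Reg3b (exact permutation p = 0.00972, adjusted p = 0.191; rho = -0.886, exact p = 0.0333, adjusted p = 0.208; n = 6) and -0.923 with Reg3g (exact permutation p = 0.0181, adjusted p = 0.191; rho = -0.886, exact p = 0.0333, adjusted p = 0.208; n = 6). Without replicates 2 and 3 they were -0.964 and -0.986, and centred within sets -0.932 and -0.960. With any 1 library left out, the r with Reg3b lay between -0.953 and -0.900.

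Gene by gene, the goblet list did not move as a block. Tff3, a trefoil peptide of goblet cells, was at 197.1, 206.0, 738.7, 457.3, 594.5 and 999.8 TPM in replicates 1 to 6, and its r was 0.936 with Reg3b and 0.908 with Reg3g. Agr2, a protein disulfide isomerase needed for mucin production, reached 0.873 and 0.844. These were the 2 of 7 goblet genes at 0.8 or more with each Reg3 gene, where 2.94% of all genes were with Reg3b and 3.07% with Reg3g. Muc2, the main secreted mucin, had an r of 0.766 with Reg3b, and Zg16 had 0.628, while Clca1 was at most 6.67 TPM in any library and had -0.646. The median r of the list with Reg3b was 0.766, against -0.100 over all genes.

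Tuft cell genes went the other way. Of 13 tuft genes, 0 had a positive r with Reg3b or Reg3g, and 9 had an r of -0.8 or less with Reg3b, where 5.69% of all genes had one. The same number, 9 of 13, had such an r with Reg3g, against 5.02% of all genes. Sucnr1, the succinate receptor, had an r of -0.923 with Reg3b, and Trpm5, the cation channel of taste transduction, had -0.920. Trpm5 was at 1403, 1354, 839.1, 1114, 1018 and 1119 TPM in replicates 1 to 6, so it was lowest in the library where Reg3b and Reg3g were highest. The median r of the list with Reg3b was -0.848, against -0.100 over all genes. Whether the share of other epithelial cells in a library bears on the Reg3 levels was not tested.

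No relation of the Paneth cell or enterocyte list with Reg3b or Reg3g passed the test, and the values moved widely with single libraries. The r of the Paneth list was -0.031 with Reg3b and -0.127 with Reg3g (exact permutation p = 0.936 and 0.792, adjusted p = 0.947 and 0.941; n = 6), and median-of-ratios rescaling turned the sign of both. Of 7 Paneth genes 0 reached 0.8 with either gene, and the defensin gene Defa24, the most abundant of the list at 1872 to 12424 TPM, had an r of 0.141 with Reg3b. Paneth genes were highest in replicate 4, at 26976 TPM in sum, where Reg3b and Reg3g were only the third lowest. The enterocyte list had an r of -0.384 with Reg3b and -0.467 with Reg3g. Without replicate 2 these were -0.809 and -0.904 (exact permutation p = 0.10 and 0.05, n = 5), and without replicate 3 they were 0.025 and -0.085. Without replicate 2 the Paneth list had -0.522 and -0.645. The difference between these lists and the goblet list was not tested. The r of the enteroendocrine list was 0.705 with Reg3b and 0.698 with Reg3g (adjusted p = 0.391 by exact permutation for both, n = 6). The median of this list was 0 in replicate 1, and at a pseudocount of 0.01 the r were 0.594 and 0.545. Sct, its most abundant gene at 331 to 474 TPM, had an r of -0.656 with Reg3b and -0.638 with Reg3g. Of the 8 genes of this list tested, 6 had an r above 0 with each Reg3 gene.

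**Figure D3:**
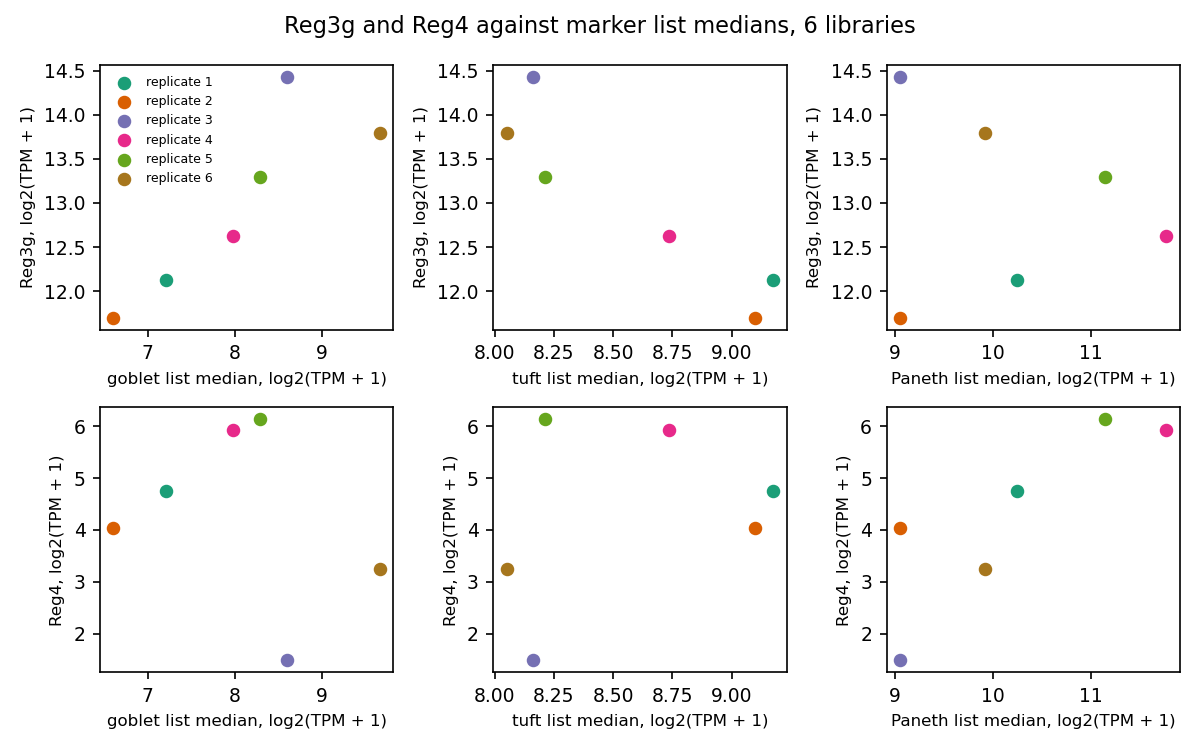
Reg3g (top row) and Reg4 (bottom row) on the vertical axes against the median of the goblet, tuft and Paneth marker lists on the horizontal axes, all as log2(TPM + 1), with 1 point per library. Reg3g rises with the goblet list (r = 0.858) and falls with the tuft list (r = -0.923), and Reg4 rises with the Paneth list (r = 0.843), none of which passed 0.05 after adjustment.

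For Reg4 the Paneth list was the 1 list that passed 0.05 before adjustment. Its r was 0.843 with the Paneth list (exact permutation p = 0.0389, adjusted p = 0.194; rho = 0.771, exact p = 0.103, adjusted p = 0.514; n = 6), 0.703 with the enterocyte list and -0.226 with the enteroendocrine list. With the Paneth list it was 0.809 without replicates 3 and 5 and 0.795 after centring within the sets of libraries (exact permutation p = 0.222). With the goblet list it was -0.312, and -0.918 after centring (exact permutation p = 0.111). With the tuft list it was 0.332, and 0.842 after centring (exact permutation p = 0.0833). A positive r with Reg4 was found for 12 of 13 tuft genes, of which Il25, a cytokine gene of tuft cells, reached 0.861. The median r of the tuft genes with Reg4 was 0.231, against -0.128 over all genes. Of 7 Paneth genes, 3 had an r of 0.8 or more with Reg4, where 2.3% of all genes did, namely Mmp7, the protease that activates defensins, at 0.911, Lyz1, the lysozyme, at 0.899, and Itln1 at 0.834. Of 8 enterocyte genes 3 did so, Apoa1 at 0.969, Fabp2 at 0.891 and Anpep at 0.827. None of the 8 enteroendocrine genes tested and none of the 7 goblet genes did. Of the 8 enteroendocrine genes, 5 had an r above 0 with Reg4, and their median r was 0.065. Chga, the granule protein that marks enteroendocrine cells, had the highest r of them, 0.660. It was at 40.4 TPM in replicate 5, where Reg4 was highest, and at 0.19 to 6.41 TPM in the other libraries. The difference between the r of Reg4 and that of Reg3g with the Paneth list was not tested.

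Genes of the pathway that induces Reg3 genes were present at low to moderate levels. Of 9 genes listed under IL-22 and MyD88 signalling, 8 averaged 1 TPM or more. The receptor subunit gene Il10rb had 146.6 ± 49.8 TPM, Jak1 had 51.2 ± 18.4 TPM, Stat3 had 29.5 ± 3.95 TPM, Myd88 had 26.6 ± 11.6 TPM, Extl3, which encodes a proposed Reg receptor, had 17.0 ± 4.68 TPM and Tyk2 had 10.6 ± 3.98 TPM (SD, n = 6 each). A second receptor subunit gene of this list, Il22ra1, was lower at 6.87 ± 2.99 TPM, and Socs3 had 7.94 ± 1.81 TPM (SD, n = 6 each). Il22ra1 had an r of 0.804 with Reg4, where 2.3% of all genes reached 0.8. Il22, a lymphocyte gene, was listed at 0 in every library. None of the 8 had a positive r with Reg3b or with Reg3g. None was at -0.8 or less, where 5.69% of all genes were with Reg3b and 5.02% with Reg3g. Their median r was -0.229 with Reg3b, against -0.100 over all genes, and -0.231 with Reg3g, against -0.089 over all genes. Both medians include Extl3, which is listed here as a proposed Reg receptor and not as part of the inducing pathway. Extl3 had the lowest r of the 8, at -0.645 with Reg3b and -0.753 with Reg3g. Medians without it were not computed, and whether these medians differ from those of all genes was not tested. The RNA of Stat3 ran from 25.6 to 34.4 TPM, and that of Reg3b had an 11.4-fold range. Activity of the signalling proteins was not measured, and whether it bears on the Reg3 levels was not tested.

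Of 15 epithelial genes that microbes or IL-22 are known to induce, 11 averaged 1 TPM or more, and 3 of these had an r of 0.8 or more with both Reg3b and Reg3g, where 2.94% and 3.07% of all genes did. They were Duox2 and Duoxa2, which form the hydrogen peroxide producing oxidase of the gut surface, and the cytokine gene Il18. Duox2 was at 11.4, 9.65, 57.4, 37.9, 33.3 and 46.6 TPM in replicates 1 to 6, with an r of 0.962 with Reg3b, and was lowest and highest in the same libraries as Reg3b. Duoxa2 was at 20.2, 7.40, 79.6, 35.3, 64.4 and 44.1 TPM, with an r of 0.908. Il18 was at 0.84, 2.96, 17.4, 13.1, 12.6 and 24.6 TPM, with an r of 0.872.

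The other 8 genes of this list did not reach 0.8, although 9 of the 11 genes had an r above 0 with Reg3b. Fut2, which fucosylates the epithelial surface, had an r of -0.893 with Reg3b and was highest in replicate 2, at 82.4 TPM. Saa1, a serum amyloid gene, was highest in replicate 4, at 156.3 TPM, and had an r of 0.530. Pigr, the transporter of IgA, was highest in replicate 3, at 733.7 TPM, and had an r of 0.778, and the most abundant gene of the list, Lypd8, had 0.445. The median r of the 11 genes was 0.530 with Reg3b, against -0.100 over all genes, and 0.404 with Reg3g, against -0.089 over all genes.

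**Figure D4:**
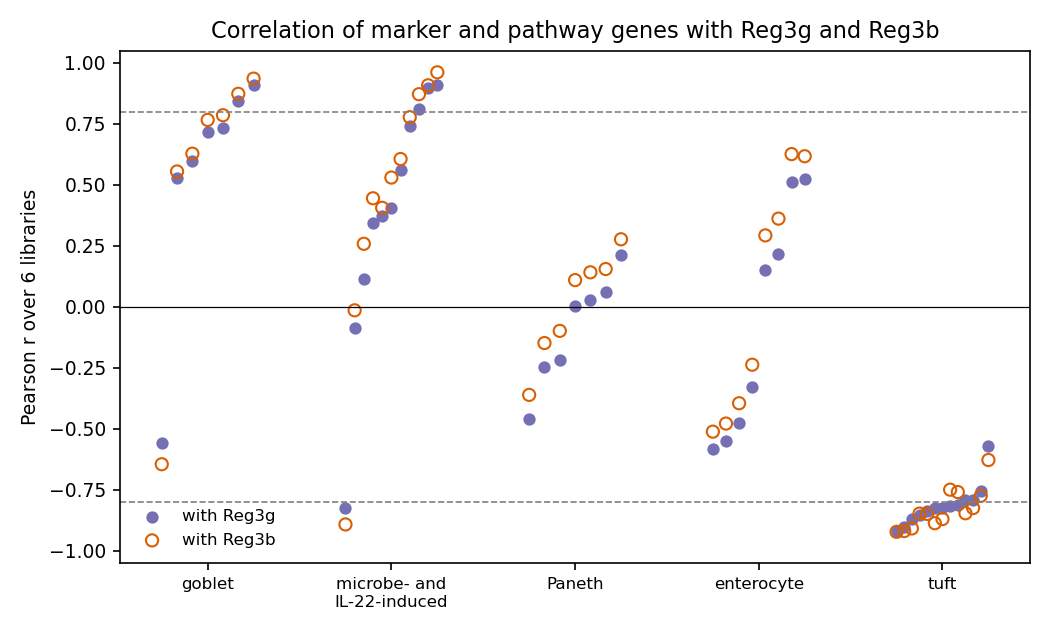
Pearson r over 6 libraries (vertical axis) of each gene averaging 1 TPM or more in 5 lists (horizontal axis) with Reg3g (filled points) and Reg3b (open points), with dashed lines at 0.8 and -0.8. Goblet genes lie mostly above 0 with 2 of 7 past 0.8, 3 of 11 microbe- and IL-22-induced genes lie past 0.8, Paneth and enterocyte genes lie on both sides of 0, and all 13 tuft genes lie below 0. Of all genes, 2.94% had an r of 0.8 or more with Reg3b and 3.07% with Reg3g.

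Among 6982 other genes averaging 10 TPM or more, the highest r with Reg3b belonged to Pdia3, an isomerase of the endoplasmic reticulum (0.985), H2-DMa, an MHC class II chaperone subunit (0.982), and Mrps28 (0.980). Those with Reg3g were Aurkb (0.994), the immunoproteasome gene Psmb8 (0.987) and Hsf1 (0.986). Psmb8 was at 143.9, 141.0, 261.9, 157.9, 188.9 and 222.6 TPM in replicates 1 to 6. For Reg4 they were Phf21a (0.998), Cdk12 (0.982) and Dyrk2 (0.976). As these genes were picked as the highest of 6982, no test was made of them.

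For the lower members the same ranking gave Cetn3 (0.992), D10Wsu52e (0.987) and Mfsd1 (0.987) for Reg3a, and Mtfr1l (0.988), 2700029M09Rik (0.984) and Nol11 (0.984) for Reg1. An r of 0.8 or more was reached by 5.46% of all genes with Reg3a and by 4.77% with Reg1. In the fixed lists, 1 of 6 stem genes, the crypt base gene Olfm4, reached 0.837 with Reg3a. Myd88, 1 of 8 signalling genes tested, reached 0.825, and no gene of the other lists reached 0.8 with Reg3a. With Reg1, the stem gene Axin2 was the 1 listed gene past 0.8. The median r of the 6 stem genes was 0.416 with Reg3a, against 0.231 over all genes, and -0.017 with Reg1, against 0.095 over all genes. Axin2 was at 1.82 TPM in replicate 5, where Reg1 was listed at 0, and between 9.10 and 10.5 TPM in the other libraries.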

How the data were processed

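RNA from sorted ileal tuft cells was prepared by a modified SMART-Seq2 protocol per the methods, while the labels also name 3' polyA and droplet preparations. The authors aligned paired-end reads to the UCSC mm10 transcriptome with Bowtie and deposited TPM values from RSEM v1.2.3, which divides reads that align to several transcripts by estimated shares. No strand setting or gene filter is stated. Each library sums to 1000000 TPM within rounding, so depth is unknown and precision rests on the 6 libraries. The labels call each library a mouse replicate.

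Columns were matched to replicates by number. Values were analysed as log2(TPM + 1) with exact permutation tests and Benjamini-Hochberg adjustment, and genes averaging 1 TPM or more served as background. The tests were checked on simulated data. All 7 members are named. Other genes named are the 3 with the highest r to each tested member among those averaging 10 TPM or more, the 3 most abundant of each marker list, and pathway genes averaging 10 TPM or more. Further list genes, such as Muc2, Agr2, Sucnr1, Mmp7, Anpep, Clca1, Chga, Axin2, Il22ra1 and Socs3, were named after their values were seen. The members, lists and tests were chosen with earlier results of these data known. Alternatives were other pseudocounts (0.1 and 0.01), setting values under 0.1 TPM to 0, 2 rescalings, other tests, centring within sets of libraries, higher filters and leaving out each library. Positions came from GENCODE M21 and promoters from RefSeq on GRCm38.p6, and protein sequences were not used here. Tests ran in scipy 1.17.1, tables in pandas 2.3.3 and numpy 2.4.6, and plots in matplotlib 3.10.9, under Python 3.11.15.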

Additional observations from a re-analysis of the deposited data

Results flagged for a closer look

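Dixon's test asks whether 1 library lies too far from its nearest neighbour for the range of the 6, and chance alone marks about 1 in 20 measures. It was run on 19 measures, namely the 7 Reg genes, the summed TPM of 11 lists and the log2 ratio of Reg3b to Reg3g, of which 0.95 would be marked by chance, and it marked 2. Reg3d was listed at 0.32 TPM in replicate 6 and at 0 elsewhere, so the gap is the whole range. The pancreatic acinar list summed to 2.72 TPM in replicate 4, all of it Pnliprp1, and to at most 0.10 TPM elsewhere, so the gap is 0.963 of the range. Both rest on values near 0.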

How the results depend on the processing

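Reg3g exceeded Reg3b, and Reg3b exceeded Reg3a, under every alternative run. The adjusted call changed for Reg3b over Reg3a under the exact Mann-Whitney test (difference 7.43, exact adjusted p = 0.0130). The r of Reg3b with Reg3g was 0.980 to 0.999 with each library left out and 0.991 after centring within replicates 1 to 3 and 4 to 6; the count of pairs that passed after adjustment went from 1 to 0 in each of these settings. The smallest p possible with 5 libraries is 0.00833 and with 36 pairings 0.0278, and unadjusted exact permutation p with 5 libraries were 0.00833 to 0.0167, so a single pair cannot pass there after adjustment over 10. Median-of-ratios rescaling shifted log2 values of a library by -0.20 to 0.11, and rescaling without Rn45s and Gm20594 by 0.41 to 0.69. No paired analysis was possible because the 6 libraries form 1 group, so no groups share replicate numbers; the tests between neighbouring genes take differences within a library.

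No relation that changed sign had passed the test. Under settings that keep all 6 libraries, sign changes concerned Reg1, Reg3a and the Paneth list with Reg3b and Reg3g. Reg1 had an r of -0.0033 with Reg3b, -0.032 with Reg3g and -0.016 with the goblet list at a pseudocount of 0.01. With the tuft list it had -0.015 and -0.0037 under the rescalings, -0.073 after centring and -0.371 by Spearman's rho. With list means in place of medians Reg1 had -0.064 (goblet) and -0.068 (enterocyte). Reg3a had 0.052 and 0.102 with the enteroendocrine list at pseudocounts of 0.1 and 0.01, and 0.397 after centring and 0.102 by list means. After centring, Reg3a also had 0.207 with Reg3b, 0.099 with Reg3g and -0.087 with the tuft list. The Paneth list had an r with Reg3b of 0.083 and 0.053 under the rescalings, 0.029 by rho and 0.062 by list means, and with Reg3g of 0.014 under median-of-ratios rescaling and 0.029 by rho.

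With each library left out, the ranges that crossed 0 were -0.18 to 1.10 (log2) for Reg3a minus Reg4 and -0.0022 to 0.16 for Reg2 minus Reg3d. Reg1 ran from -0.095 to 0.604 with Reg3a, -0.113 to 0.821 with Reg3b, -0.187 to 0.793 with Reg3g, -0.725 to 0.281 with the Paneth list, -0.022 to 0.645 with the goblet list, -0.094 to 0.536 with the enterocyte list, -0.624 to 0.292 with the enteroendocrine list and -0.633 to 0.338 with the tuft list. Reg3a ran from -0.799 to 0.363 with Reg3b, -0.876 to 0.334 with Reg3g and -0.395 to 0.228 with the enteroendocrine list. Reg3b ran from -0.683 to 0.028 with Reg4, -0.522 to 0.457 with the Paneth list and -0.809 to 0.025 with the enterocyte list. Reg3g ran from -0.645 to 0.347 with the Paneth list, and Reg4 from -0.681 to 0.076 with the enteroendocrine list.

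The counts of genes that serve as background moved with the scale and the filter. Genes with an SD of 1 or more numbered 1885, 3225 and 3335 at pseudocounts of 1, 0.1 and 0.01, and 381 at a mean of at least 10 TPM. Genes with an r of 0.8 or more numbered 300 and 341 with Reg3a under the rescalings and 873 with Reg1 at a pseudocount of 0.01. At a mean of at least 10 TPM they numbered 367 with Reg1, 230 with Reg3b, 240 with Reg3g and 145 with Reg4. With 5 libraries, where a high r is reached more often, they ran from 434 to 1017 with Reg1, 870 to 1414 with Reg3a, 485 to 904 with Reg3b, 438 to 906 with Reg3g and 440 to 581 with Reg4. As depth is unknown, how far zeros of Reg1, Reg2 and Reg3d reflect shallow sequencing cannot be given.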
